A study of Mus musculus with 16 samples.

Results

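Dual-specificity phosphatases are enzymes that take phosphate off both the tyrosine and the threonine of a protein, and the best known of them switch off MAP kinases. The 10 genes described here, Dusp1, Dusp3, Dusp6, Dusp7, Dusp8, Dusp10, Dusp13, Dusp16, Dusp26 and Dusp27, are 10 of the 11710 genes in a count table from mouse rotator cuff muscle. They were taken by name, and all 10 were present and passed the filter on low counts. Dusp10 was chosen by its counts, which were much lower in operated than in unoperated C57BL/6J muscle, and the others were listed beside it. Dusp10's values in that comparison, and in every other one that holds C57BL/6J samples, are given as a description with no test.

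RNA was sequenced from 16 samples in 4 groups of 4, which cross strain with surgery. The strains were C57BL/6J (BL6), a common inbred strain, and MRL/MpJ (MRL), an inbred strain in which ear holes are known to close. The muscle was either left unoperated, or its tendon was removed and its nerve cut (tenectomy with denervation). The series text names the infraspinatus and the sample labels the supraspinatus, 2 neighbouring rotator cuff muscles, so the tissue is called rotator cuff muscle. Age, sex and the time after surgery are not given in the labels used here. The labels also do not say that samples of a group came from separate animals, and p-values then measure only the spread between these samples. The design asks whether muscle of the 2 strains responds differently to a rotator cuff tear.

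MAP kinase cascades carry growth, stress and load signals from the cell surface to the nucleus. Relays of kinases end in ERK, JNK or p38, which are active only while phosphorylated on both residues. Dusp10, Dusp8 and Dusp16 code for phosphatases that prefer JNK and p38, Dusp6 and Dusp7 for phosphatases that prefer ERK, and Dusp1 for a nuclear phosphatase whose own gene is switched on within minutes by many stimuli. The remaining members are small or atypical phosphatases without the docking domain of that group. In muscle, ERK, JNK and p38 are known for their parts in satellite cell differentiation, fibre type and atrophy.

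The upstream regions of 4 members are printed first, because Dusp10, Dusp8 and Dusp16 share substrates and were lower together after surgery, whereas Dusp1 was higher. They come from RefSeq on build GRCm38.p6, where 9 of the 10 members matched by symbol and Dusp26 did not. Each run ends at the base before the start site, except that of Dusp1, from which bases in annotated exons of coding transcripts were left off. Capitals mark the cAMP response element TGACGTCA, which reads the same on both strands.
Dusp10: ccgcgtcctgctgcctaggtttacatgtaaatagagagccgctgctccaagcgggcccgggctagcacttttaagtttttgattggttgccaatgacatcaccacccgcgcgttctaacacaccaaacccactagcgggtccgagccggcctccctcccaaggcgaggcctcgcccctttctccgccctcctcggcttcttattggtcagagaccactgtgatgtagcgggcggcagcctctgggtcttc
Dusp8: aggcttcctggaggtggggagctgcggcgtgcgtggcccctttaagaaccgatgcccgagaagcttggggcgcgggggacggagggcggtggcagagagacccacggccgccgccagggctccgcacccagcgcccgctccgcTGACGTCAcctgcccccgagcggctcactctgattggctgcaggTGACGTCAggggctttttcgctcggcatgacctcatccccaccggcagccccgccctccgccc
Dusp16: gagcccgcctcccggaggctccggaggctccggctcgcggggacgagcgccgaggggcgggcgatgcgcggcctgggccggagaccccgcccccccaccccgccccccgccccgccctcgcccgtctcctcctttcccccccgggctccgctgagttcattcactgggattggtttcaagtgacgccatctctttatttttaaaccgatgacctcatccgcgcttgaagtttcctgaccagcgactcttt
Dusp1: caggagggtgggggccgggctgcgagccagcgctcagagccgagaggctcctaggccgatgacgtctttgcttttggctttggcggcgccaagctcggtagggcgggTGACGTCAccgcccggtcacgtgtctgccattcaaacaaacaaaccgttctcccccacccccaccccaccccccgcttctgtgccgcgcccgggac
These are chr1:184034131-184034380 on the plus strand for Dusp10, chr7:142095285-142095534 on the minus strand for Dusp8, chr6:134792629-134792878 on the minus strand for Dusp16 and chr17:26508520-26508722 on the minus strand for Dusp1. The element was found 2 times upstream of Dusp8, 107 and 63 bases before the start site, and 1 time upstream of Dusp1, at 143 bases. It was found in 1.55% of the 32851 RefSeq promoters of the same 250 bases. No match was found in these letters for Dusp10, Dusp16 or the other 5 members with an entry. The MEF2 motif, searched on both strands, was found upstream of Dusp16 and Dusp27 and in 2.92% of all promoters, and the AP-1 motif TGANTCA in 1 of 4 Dusp13 promoters and in 6.75% of all. So the element stood upstream of 1 member that was higher after surgery and 1 that was lower. A match describes the sequence only.

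Total counts ran from 24323862 to 43552964 per sample, and in BL6 every operated total lay under every unoperated one. At this depth 3 counts correspond to 0.0689 to 0.123 CPM, a gene's count scaled to a common library total, well below every value given here. The labelled tissue showed 8 of 8 skeletal muscle fibre markers, which summed to 47240 CPM or more in every sample. Their summed ranges shifted down after surgery, with overlap in BL6 and none in MRL, at 108750 to 152050 CPM in unoperated and 47240 to 119270 in operated BL6, and 97795 to 111360 against 63172 to 81109 CPM in MRL. Endothelial markers went the other way, from 312 to 416 CPM up to 656 to 818 in BL6, and from 238 to 332 up to 337 to 847 in MRL, as did the 5 adipocyte markers measured of 6 listed, from 221 to 307 up to 1294 to 2221 CPM in BL6 and from 271 to 395 up to 1367 to 2002 in MRL. Schwann cell markers summed to 81.0 to 108 CPM in unoperated and 218 to 541 in operated BL6, and to 70.9 to 133 and 125 to 363 CPM in MRL. The sum of the 3 satellite cell markers measured of 4 shifted down with that of the fibre markers. It went from between 49.2 and 60.2 CPM to between 27.2 and 37.1 in BL6, where 3 of 3 fell. In MRL it went from between 37.1 and 40.7 CPM to between 24.7 and 38, with overlap, where 2 fell. The other, Pax7, had 3.47 ± 0.983 CPM in unoperated and 4.01 ± 1.3 in operated MRL, a log2 fold change of 0.21 that did not pass. Of 9 macrophage markers 6 rose in BL6 and 1 in MRL, and of 6 fibroblast markers 3 rose in BL6. Single fibre markers did not all follow their sum, and of the 8, 4 fell in BL6 and 2 in MRL. Des had log2 fold changes of 0.07 in BL6 and -0.11 in MRL, Myh1 -0.34 and 0.30, and Myh2 -0.08 and 0.22. None of these passed the test given below. By the test given below, 35.1% of all genes rose and 32.8% fell in BL6, and 22.3% rose and 22.7% fell in MRL. Mitochondrial genes took 12.2% to 14.2% of counts in unoperated and 17.4% to 23.8% in operated BL6. The part of these shifts in the differences below was not tested, and the scaling to fibre markers given below is a description. In bulk muscle, fewer cells of a type and less RNA per cell cannot be told apart.

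Values of 3 libraries stood apart from their group. Replicate 4 of operated BL6 had 7477 CPM of fibroblast and 494 CPM of macrophage markers, against at most 1958 and 134 CPM in the other operated BL6 samples. Replicate 1 of unoperated MRL had 286 CPM of macrophage markers against 63.0 to 73.3 in the others of its group. Replicate 4 of operated MRL had 11.8% of its counts in mitochondrial genes, against 20.1% to 24.9% in the other operated MRL samples and 11% to 11.6% in unoperated MRL, and its endothelial markers, at 337 CPM, lay close to the unoperated range. Several results below are also given without 1 or all of these 3 libraries. Other libraries also had values apart from their group and were left out only singly. Replicate 2 of operated BL6 had 119270 CPM of fibre markers, against 47240 to 84286 in the others of its group. Replicate 1 of unoperated BL6 had 86.7 CPM of macrophage and 1567 CPM of fibroblast markers, against 30.8 to 42.1 and 653 to 926 in the others.

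Levels of different genes were set side by side per kilobase of exon, in CPM per kb. In unoperated BL6 the order was Dusp13 at 77.5 ± 3.89 (SD, n = 4), Dusp26 at 62.8 ± 15.5, Dusp10 at 42.3 ± 6.97, Dusp3 at 33.4 ± 1.56, Dusp27 at 23.8 ± 1.495, Dusp1 at 16.8 ± 6.96, Dusp7 at 12.9 ± 2.06, Dusp6 at 8.05 ± 2.39, Dusp8 at 7.87 ± 0.742 and Dusp16 at 3.95 ± 0.526. Samples of neighbours overlapped for Dusp13 and Dusp26, Dusp26 and Dusp10, Dusp27 and Dusp1, Dusp1 and Dusp7, and Dusp6 and Dusp8. Thus the phosphatases with the most mRNA per length in unoperated muscle were atypical ones, and Dusp10 was the most abundant of those that prefer JNK and p38. In operated BL6 Dusp10 held place 7 of 10, at 7.503 ± 0.9545 CPM per kb. In unoperated MRL the order began with Dusp13 at 75.7 ± 2.29, Dusp3 at 38.6 ± 2.87 and Dusp10 at 26.0 ± 4.84, and Dusp26 stood only sixth, at 12.1 ± 1.04 CPM per kb.

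**Figure D1:**
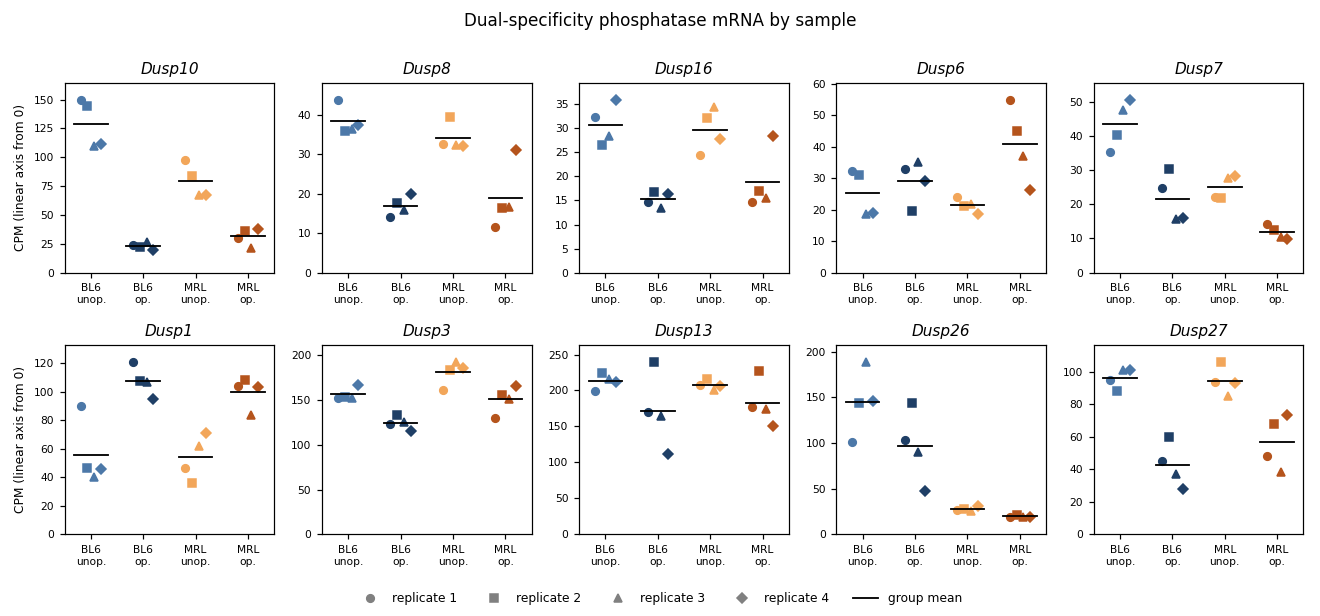
CPM of each phosphatase in each of the 16 samples, by group, on linear axes from 0, with a bar at the group mean and a marker shape for each replicate number. Dusp10 in operated BL6 sits between 19.4 and 26.3 CPM, under every unoperated sample, and Dusp26 sits between 18.9 and 31.0 CPM in all MRL samples, under every BL6 sample.

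In MRL, most of these mRNAs were lower after surgery, and Dusp1 and Dusp6 were higher. A gene was called where edgeR's quasi-likelihood test gave a Benjamini-Hochberg adjusted p below 0.05. In BL6, 7 of the 9 members tested were called, 1 higher and 6 lower, where 67.9% of all 11709 genes tested were called, 35.1% higher and 32.8% lower. In MRL, 8 of 10 changed, 2 higher and 6 lower, where 45% of all genes were called, 22.3% higher and 22.7% lower. The median log2 fold change was -0.59 in BL6 over the 9 members other than Dusp10 and -0.58 in MRL over all 10, against 0.04 and 0.01 over all genes. The BL6 counts are a description, because that comparison was used to choose Dusp10 and the list around it. The BL6 adjusted p-values of the other members given below carry the same limit. The MRL counts are not free of choice either, since the members were chosen with earlier results of these data known. Samples of the 2 conditions did not overlap for 6 of those 9 members in BL6 (5 below and 1 above, Dusp10 also below) and for 7 of 10 in MRL (5 below and 2 above), where 29.2% of all genes lay wholly below and 27.5% wholly above in BL6, and 16.7% and 17% in MRL. Without the 3 libraries that stood apart, 6 members were called in BL6 and 9 in MRL, by the same test.

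**Figure D2:**
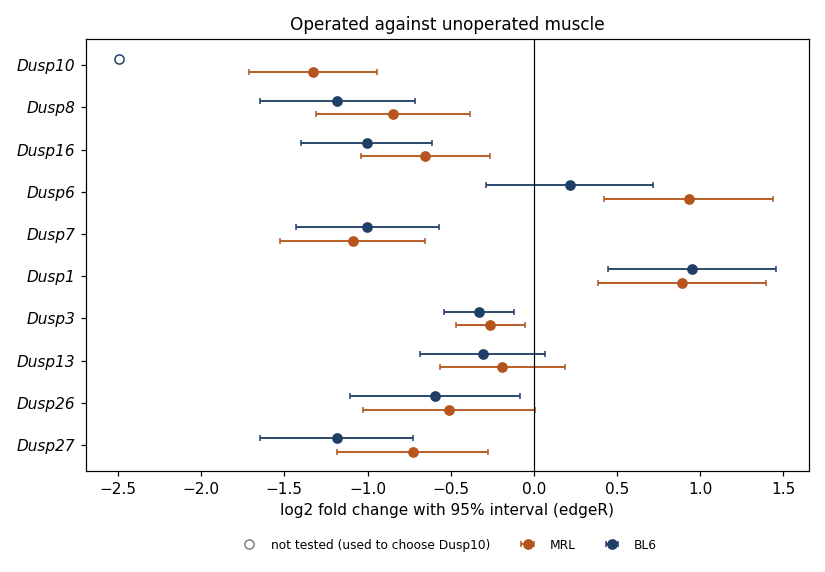
Log2 fold change of operated over unoperated muscle for each phosphatase (x axis), in BL6 and in MRL, with 95% intervals from edgeR. The hollow point is Dusp10 in BL6, which was not tested and has no interval. Dusp1 lies to the right of 0 in both strains, Dusp6 clears 0 in MRL, and Dusp10 lies farthest to the left in both.

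Dusp10 (ENSMUSG00000039384, chromosome 1, 184013302 to 184075636 on GRCm38) codes for a phosphatase of p38 and JNK, also called MKP-5. Its 4 unoperated BL6 samples held 149, 145, 109 and 112 CPM and its operated BL6 samples 23.6, 21.9, 26.3 and 19.4 CPM. The groups were far apart, with means of 129 ± 21.2 and 22.8 ± 2.90 CPM (SD, n = 4), a 5.64-fold difference that was the 51st most negative of 11709 genes. In MRL, whose counts were not the ones Dusp10 was chosen by, unoperated samples held 97.9, 84.1, 67.5 and 67.4 CPM. Operated MRL samples held 30.4, 36.2, 21.5 and 37.8 CPM. Every operated MRL sample thus lay below every unoperated one. In MRL Dusp10 fell by 1.33 on the log2 scale (SE 0.18, 95% interval -1.72 to -0.94), 2.51-fold, and edgeR's quasi-likelihood test gave an adjusted p of 0.000411. It was the most negative value among the members in MRL too, and the 175th of all genes. Without replicate 4 of operated MRL it was -1.44. The spread in that test was estimated with the BL6 samples included. Over the 24 alternatives, by edgeR, DESeq2 or limma-voom, the adjusted p of Dusp10 in MRL was at most 0.00292.

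Dusp8 and Dusp16, the other members that prefer JNK and p38, fell in both strains. Dusp8 (chromosome 7, 142079490 to 142095843) held 43.7, 35.9, 36.5 and 37.3 CPM in unoperated BL6 and 14.1, 17.7, 15.8 and 19.96 CPM after surgery. In MRL it held 32.6, 39.5, 32.4 and 32 CPM before and 11.6, 16.3, 16.7 and 31.1 CPM after. The groups did not overlap in either strain, but replicate 4 of operated MRL came within 1 CPM of the unoperated samples. The log2 fold change was -1.18 in BL6 (SE 0.22, adjusted p 0.000297) and -0.85 in MRL (SE 0.22, adjusted p 0.00729) by edgeR's quasi-likelihood test, and without that replicate -1.20 in MRL. Dusp16 (chromosome 6, 134715468 to 134792625) went from 32.3, 26.6, 28.5 and 35.9 CPM to 14.7, 16.8, 13.5 and 16.4 in BL6. Its MRL samples went from 24.5, 32.3, 34.5 and 27.7 CPM to 14.7, 17, 15.5 and 28.3, where only the last, the same replicate 4, reached the unoperated range. The log2 fold changes were -1.01 in BL6 and -0.65 in MRL, with adjusted p of 0.000275 and 0.011 in that test, and -0.92 in MRL without replicate 4. Scaled by total counts only, the MRL value of Dusp16 was -0.58 with an adjusted p of 0.0505.

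Of the 2 members that prefer ERK, Dusp7 fell in both strains and Dusp6 rose in MRL. Dusp6 (chromosome 10, 99263231 to 99267489), a feedback phosphatase whose gene ERK itself turns on, held 32.4, 30.9, 18.5 and 19.0 CPM in unoperated BL6 and 32.9, 19.6, 35.3 and 29.1 CPM in operated BL6, which overlap. In MRL it held 24.1, 21.2, 21.9 and 18.5 CPM before and 54.8, 45.1, 37.0 and 26.3 CPM after surgery. All operated MRL samples were higher, with replicate 4 the nearest to the unoperated ones. Dusp6 rose in MRL by 0.93 on the log2 scale (SE 0.24, adjusted p 0.00717 under edgeR's quasi-likelihood model), whereas in BL6 the value was 0.215 with a 95% interval of -0.29 to 0.72 and an adjusted p of 0.431. The difference between these effects was 0.715, with an unadjusted p of 0.0487 and an adjusted p of 0.316, so the strains are not shown to differ. Without replicate 4 of operated MRL the rise of Dusp6 in MRL was 1.09, and without the 3 libraries that stood apart 1.14. The difference between strains was then 0.87 and 0.945, with adjusted p of 0.255 and 0.277 in the same test. Dusp7 (chromosome 9, 106368632 to 106375724) held 35.3, 40.3, 47.7 and 50.5 CPM in unoperated BL6 and 24.7, 30.5, 15.6 and 16 CPM after surgery. In MRL it held 22.2, 21.8, 27.7 and 28.4 CPM and then 14.4, 12.6, 10.4 and 9.87 CPM. It was lower after surgery in every sample of both strains, with log2 fold changes of -1.003 in BL6 and -1.09 in MRL (SE 0.20 and 0.21) and adjusted p of 0.000561 and 0.00173 in that test.

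Dusp1 (chromosome 17, 26505590 to 26562128), which codes for the inducible nuclear phosphatase MKP-1, was the member that rose in both strains. Unoperated BL6 samples held 90.0, 46.6, 40.4 and 45.7 CPM and operated ones 121, 107, 107 and 94.7 CPM. Replicate 1 of unoperated BL6 was the highest of its group yet under every operated sample. In MRL, 46.7, 35.8, 61.6 and 71.2 CPM became 104, 108, 83.6 and 104 CPM. The log2 fold change was 0.95 in BL6 (SE 0.24, adjusted p 0.00264) and 0.89 in MRL (SE 0.24, adjusted p 0.00853, edgeR quasi-likelihood).

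Among the atypical members, Dusp27 fell in both strains and Dusp13 passed the test in neither. Dusp27 (chromosome 1, 166098148 to 166127922), a muscle protein known to lack phosphatase activity and to be needed for sarcomere assembly, held 94.8, 88.3, 101 and 101 CPM in unoperated and 45.1, 59.5, 37.2 and 27.6 CPM in operated BL6. In MRL it held 93.5, 106, 85.0 and 92.9 CPM and then 48.2, 67.8, 38 and 73.6 CPM. The unoperated levels of the strains lay together, and the operated ones were lower in every sample, with the highest 2 of them in MRL. The log2 fold changes were -1.19 in BL6 and -0.73 in MRL, with adjusted p of 0.000256 and 0.0135 by edgeR's quasi-likelihood test. Without replicate 4 of operated MRL the MRL value of Dusp27 was -0.88. Without the 3 libraries that stood apart it was -0.89, and the BL6 value was -1.06. Dusp13 (chromosome 14, 21733394 to 21751181), whose locus gives rise to a muscle and a testis phosphatase, held 199 to 225 CPM in unoperated BL6 and 112 to 240 in operated BL6, with operated samples on both sides of the unoperated ones. Its log2 fold changes were -0.31 (95% interval -0.69 to 0.07) in BL6 and -0.19 (-0.57 to 0.19) in MRL. Without replicate 2 of operated BL6, the highest sample, the BL6 value was -0.51 with an adjusted p of 0.0079 in that test, and without replicate 4, the lowest, it was -0.16 with an adjusted p of 0.346. Without the 3 libraries that stood apart it was -0.18.

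Dusp3 fell by a small amount in both strains in CPM, the MRL call depended on the samples fitted, and the direction of the means turned when levels were set against fibre markers, at 120 ± 17.8 before and 171 ± 56.6 after surgery in BL6 and 177 ± 13.6 and 212 ± 18.9 in MRL (CPM per 100000 CPM of 8 fibre markers). Dusp3 (chromosome 11, 101971143 to 101987013), a small phosphatase of ERK and JNK, held 152, 153, 153 and 167 CPM in unoperated BL6 and 123, 134, 126 and 115 CPM in operated BL6. In MRL it held 162, 184, 193 and 186 CPM and then 130, 156, 151 and 165 CPM, where 1 operated sample passed the lowest unoperated one. It fell by 0.33 on the log2 scale in BL6 (adjusted p 0.0078) and by 0.26 in MRL (adjusted p 0.0398) under edgeR's quasi-likelihood model. The MRL call was lost in 10 of 24 alternatives, among them the omission of replicate 2 or 3 of unoperated BL6, of 2, 3 or 4 of unoperated MRL, or of 1, 2 or 3 of operated MRL, with adjusted p of 0.0509 to 0.128. The MRL fall was larger without replicate 4 of operated MRL, at -0.31 (adjusted p 0.0153, same test). Without the 3 libraries that stood apart it was -0.37 (adjusted p 0.00316). Scaled by total counts only, neither strain's fall in Dusp3 was called, at adjusted p of 0.141 and 0.171. Dusp3 shares 604 exon bases, 12.9% of its exon length, with the antisense gene Gm20659, and Dusp13 shares 280, or 10.2%, with the antisense gene Gm15935. Whether the counting used strand is not given in the sources used here, so reads from those bases cannot be told apart. No other member shared more than 1.36% of its exon bases with another gene.

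Dusp26 (chromosome 8, 31089471 to 31097047), a phosphatase found mainly in muscle and nervous tissue, held 101, 144, 189 and 145 CPM in unoperated and 103, 143, 90.2 and 47.9 CPM in operated BL6. The log2 fold change in BL6 was -0.59 (SE 0.24, adjusted p 0.0389, edgeR quasi-likelihood), and the samples overlapped. That call was lost without any 1 of replicates 2, 3 or 4 of unoperated BL6 or 1, 3 or 4 of operated BL6, at adjusted p of 0.0538 to 0.135, and the log2 fold change was -0.38 without the last of these. It was also lost when the BL6 samples were fitted alone (adjusted p 0.0943) and without the 3 libraries that stood apart (-0.40, adjusted p 0.0633). In MRL, unoperated samples held 26.5, 28.1, 25.5 and 31.0 CPM and operated samples 19.3, 20.6, 19.2 and 18.9 CPM, which do not overlap. The MRL log2 fold change was -0.51 (95% interval -1.03 to 0.01) with an adjusted p of 0.0968 when all 4 groups shared 1 estimate of spread, and 0.00502 when the MRL samples were fitted alone. It was also called without replicate 4 of operated BL6 (adjusted p 0.022) and without the 3 libraries that stood apart (0.0323), settings under which the BL6 call was lost.

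Dusp26 stood far lower in MRL than in BL6 with or without surgery. Every MRL sample, at 18.9 to 31.0 CPM, lay below every BL6 sample, at 47.9 to 189 CPM. Dusp26 was 5.21-fold lower in MRL among unoperated samples (log2 fold change -2.38, SE 0.25, adjusted p 6.67e-06) and 4.92-fold lower among operated samples (-2.30, SE 0.25, adjusted p 1.1e-05) by edgeR's quasi-likelihood test. Over the 24 alternatives the first value ran from -2.53 to -2.23 and the second from -2.52 to -2.04, and all of them were called. Dusp7 was the other member that differed, by -0.80 unoperated (adjusted p 0.0179) and -0.88 operated (adjusted p 0.00955) in that test, with no overlap between strains in either condition. The unoperated call for Dusp7 was lost without replicate 3 or 4 of unoperated BL6 or 1 or 2 of unoperated MRL, at adjusted p of 0.0503 to 0.0638. The operated call was lost when only those groups were fitted, at an adjusted p of 0.0725. These were 2 of 9 members tested in each condition, both lower in MRL. Of all genes, 10.4% were called among unoperated samples (5.36% lower) and 12.9% among operated samples (5.27% lower); 12.9% and 6.16% lay wholly below in MRL.

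The other 7 members tested did not pass in either strain comparison. Their unoperated log2 differences, MRL over BL6, ran from -0.24 for Dusp6 to 0.21 for Dusp3, and the 95% interval of Dusp27 was -0.48 to 0.42. After surgery their differences ran from -0.11 for Dusp1 to 0.48 for Dusp6. The operated difference was called for Dusp3 by DESeq2 (0.27, adjusted p 0.024) and without replicate 1 of operated MRL (adjusted p 0.0396), and for Dusp27 without replicate 2 of operated BL6 (0.64, adjusted p 0.0466). Dusp10, not tested here, had 79.2 ± 14.7 CPM in unoperated MRL against 129 ± 21.2 in unoperated BL6 (SD, n = 4), with no overlap, and 31.5 ± 7.40 against 22.8 ± 2.90 after surgery, with overlap. Its difference between strains in the surgery effect was 1.17 on the log2 scale; its group means lay farther apart in BL6. In the test of that interaction 0 of the 9 other members were called by edgeR's quasi-likelihood test, and 0 by DESeq2 and by limma-voom, with 1 of 9, Dusp6, at an unadjusted p under 0.05. Over all genes 0.248% were called for the interaction and 15.7% had an unadjusted p under 0.05.

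**Figure D3:**
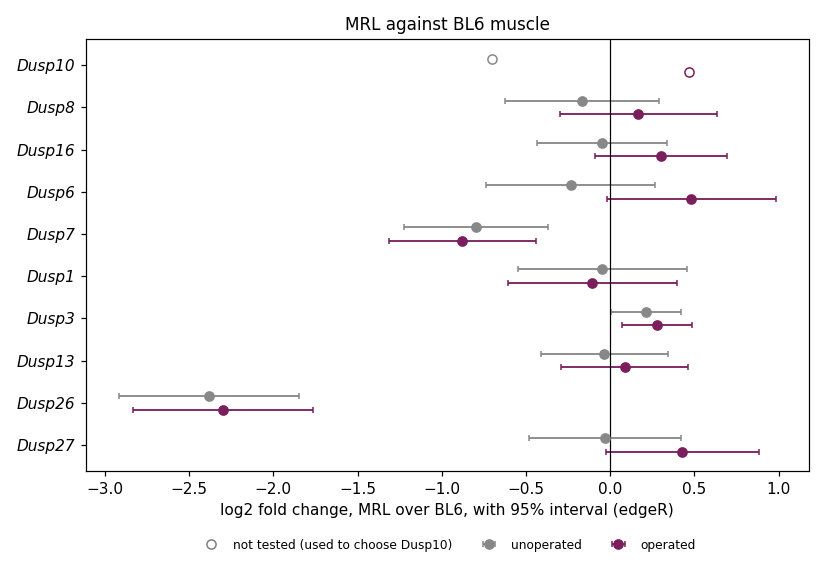
Log2 fold change of MRL over BL6 for each phosphatase (x axis), among unoperated and among operated samples, with 95% intervals from edgeR. Hollow points are Dusp10, which was not tested in these comparisons. Dusp26 lies near -2.38 and -2.30 and Dusp7 near -0.80 and -0.88.

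Since the summed fibre markers shifted down after surgery, each member was also set against their summed level, as CPM per 100000 CPM of the 8 fibre markers, with no test. On that scale Dusp10 stood at 101 ± 33.4 in unoperated and 31.5 ± 10.4 in operated BL6 (SD, n = 4), and at 77.5 ± 15.6 and 43.8 ± 6.85 in MRL, with no overlap between conditions in either strain. Dusp8 went from 29.8 ± 7.44 to 24.2 ± 12.5 in BL6 and from 33.3 ± 1.58 to 26.1 ± 9.74 in MRL, and Dusp16 from 23.7 ± 4.55 to 21.5 ± 9.13 and from 29.0 ± 3.83 to 26.2 ± 6.87, all with overlap. Dusp26 was 109 ± 16.3 and 119 ± 12.5 in unoperated and operated BL6 and 27.2 ± 2.75 and 27.6 ± 3.24 in MRL. Relative to fibre markers, Dusp10 therefore kept its separation with surgery and Dusp26 its separation between strains, while the surgery groups of Dusp8, Dusp16 and Dusp26 overlapped. For Dusp8 that overlap came from replicate 4 of each operated group, 2 of the libraries that stood apart. Without them operated Dusp8 ran from 14.8 to 23 in BL6, under the lowest unoperated value of 23.99, and from 18.4 to 26.2 in MRL, under 32.1. Without them operated Dusp16 ran from 14.1 to 19.6 in BL6, still passing the lowest unoperated value of 18.7, and from 20.9 to 24.4 in MRL, under 25.1. Dusp27 went from 73.9 ± 9.64 to 54.0 ± 3.51 in BL6, without overlap, and from 92.0 ± 5.34 to 78.5 ± 14.5 in MRL, with overlap. The direction of the means turned for the members with the smallest falls in CPM. Dusp3 lay at 100.4 to 139.9 in unoperated and 112 to 244 in operated BL6, with overlap, and at 165 to 191 and 193 to 238 in MRL, where every operated sample was higher. Dusp13 went from 164 ± 26.3 to 220 ± 21.1 in BL6, without overlap, and from 203 ± 8.36 to 257 ± 42.9 in MRL, with overlap. Dusp7 went from 32.9 ± 1.21 to 27.8 ± 4.84 in BL6 and from 24.6 ± 4.14 to 16.8 ± 4.27 in MRL, with overlap in both. In BL6 that overlap came from operated replicate 4, at 33.8, and the other operated samples ran from 22.6 to 29.4, under 31.35. In MRL it came from operated replicate 1, at 22.75, against a lowest unoperated value of 19.6. Dusp1 was wholly higher after surgery in both strains, at 44.8 ± 25.9 and 147 ± 45.4 in BL6 and 53.1 ± 16.9 and 141 ± 16.04 in MRL. Dusp6 stood at 20.2 ± 9.12 and 42.1 ± 19.5 in BL6, with overlap, and at 20.96 ± 2.78 and 58.6 ± 21.8 in MRL, without. Of the 8 markers, 4 fell in BL6 and 2 in MRL by the test used above, where 32.8% and 22.7% of all genes fell. The part that the fibre share has in these results was not tested.

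**Figure D4:**
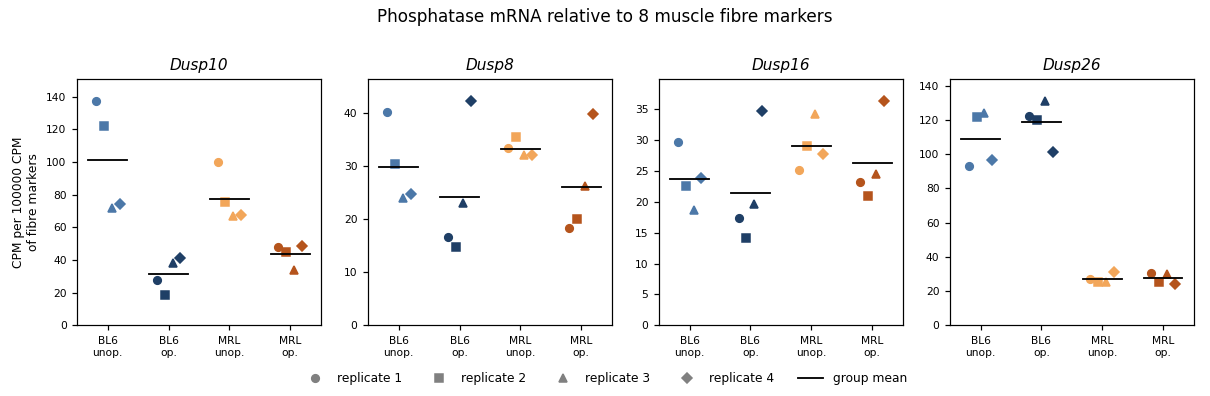
Level of 4 phosphatases in each sample relative to the summed level of 8 muscle fibre markers (CPM per 100000 CPM of markers), by group, with a bar at the group mean. Operated samples of Dusp10 lie under the unoperated ones of their strain, those of Dusp8 and Dusp16 overlap them, with replicate 4 the highest operated sample in both strains, and Dusp26 separates by strain.

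Among 9633 genes with an assigned name and a mean of at least 5 CPM, the 5 whose log2 CPM followed Dusp10 most closely over the 16 samples were Dcun1d4 (Pearson r 0.97), Paqr9 (0.96), Fzd4 (0.95), Polh (0.95) and Mars2 (0.95). Within groups, after removal of group means, the same correlations were 0.39 to 0.54, lower than over all samples. All 5 had the same order of group means as Dusp10, which is no separate result, because they were picked by this correlation. Fzd4, a Wnt receptor, stood at 278 ± 32.2 CPM in unoperated BL6, 143 ± 21.4 in unoperated MRL, 74.9 ± 10.1 in operated MRL and 67.5 ± 4.18 in operated BL6. Of the other members, Dusp27 (0.88), Dusp8 (0.87) and Dusp16 (0.85) were nearest to Dusp10, and Dusp1 ran opposite, at -0.77. These correlations are descriptions of samples that share their groups.

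The rest of the family was called no more often than genes in general. Of 18 other dual-specificity phosphatase genes measured of 26 listed, 4 rose and 7 fell in BL6, and 1 rose and 5 fell in MRL, by edgeR's quasi-likelihood test with adjustment over all genes. That is 61.1% and 33.3% called, against 67.9% and 45% of all genes, and the median log2 fold changes were 0.02 and -0.13, against 0.04 and 0.01 for all genes. The most abundant of these by CPM was Epm2a, which codes for the glycogen phosphatase laforin and fell by 1.91 in BL6 (adjusted p 0.000127) and by 0.90 in MRL (adjusted p 0.0276). Dusp11, an RNA phosphatase, rose by 0.24 in BL6 (adjusted p 0.0465) and had 0.25 in MRL (adjusted p 0.0573). Ssh2, a phosphatase of the actin-severing protein cofilin, fell by 0.80 in BL6 (adjusted p 0.000447) and had -0.23 in MRL (adjusted p 0.232).

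Of the MAP kinases, 80% were called in each strain, against 67.9% of all genes in BL6 and 45% in MRL. Of 10 MAP kinase genes measured of 14, 3 rose and 5 fell in each strain by that test, and the changes below are log2 fold changes of operated over unoperated muscle. Mapk14, which codes for p38 alpha, fell by 1.12 in BL6 and 0.68 in MRL (adjusted p 1.57e-05 and 0.00173). Mapk12, the muscle-rich p38 gamma and the most abundant of the list by CPM, had -0.14 and -0.01 (adjusted p 0.437 and 0.975). Of 7 MAP kinase kinases measured, 5 fell in each strain (71.4%, where 32.8% of all genes were lower in BL6 and 22.7% in MRL). Map2k4, an activator of JNK and p38, fell by 1.12 and 0.65 (adjusted p 1.97e-05 and 0.00263). Map2k2, an activator of ERK, fell by 0.43 in MRL (adjusted p 0.0239) and had -0.31 in BL6 (adjusted p 0.0651), and the p38 activator Map2k3 had 0.04 and -0.31 (adjusted p 0.848 and 0.188).

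One step further up, of 19 measured MAP kinase kinase kinases 5 rose and 9 fell in BL6, and 2 rose and 5 fell in MRL, or 73.7% and 36.8% called, near the 67.9% and 45% of all genes. Map3k20, the stress kinase ZAK, fell by 0.55 in BL6 (adjusted p 0.0273) and had -0.05 in MRL (adjusted p 0.853), and Araf fell by 0.30 in BL6 (adjusted p 0.0341) and had -0.22 in MRL (adjusted p 0.131). Of 12 scaffolds and substrate kinases, 3 rose and 7 fell in BL6, and 1 rose and 6 fell in MRL (83.3% and 58.3% called). Mapkapk2, the main p38 substrate kinase, fell by 0.75 and 0.54 (adjusted p 0.00164 and 0.0217), and the JNK scaffold Spag9 by 1.17 and 0.49 (adjusted p 6.35e-05 and 0.0307), while Mknk2 had 0.26 and -0.34 (adjusted p 0.233 and 0.148).

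Of 19 transcription factors and immediate early genes measured, 10 rose and 4 fell in BL6, and 5 rose and 3 fell in MRL, with medians of 0.57 and 0.39. The calls, 73.7% and 42.1%, were near the 67.9% and 45% of all genes. The 3 most abundant by CPM were MEF2 factors, muscle regulators that p38 phosphorylates. Mef2c fell by 1.01 in BL6 (adjusted p 0.00045) and had -0.36 in MRL (adjusted p 0.136), Mef2d fell by 0.56 and 0.49 (adjusted p 0.00504 and 0.0188), and Mef2a fell by 1.13 and 0.73 (adjusted p 3.61e-05 and 0.00276). Of 6 measured feedback inhibitors of ERK, 5 rose and 1 fell in BL6 and 3 rose in MRL, where 35.1% and 22.3% of all genes rose. Errfi1, an inhibitor of the EGF receptor, rose by 1.19 in BL6 (adjusted p 0.000101) and had 0.15 in MRL (adjusted p 0.513), Spry1 rose by 0.59 in BL6 (adjusted p 0.000884) and had 0.29 in MRL (adjusted p 0.0706), and Spred1 rose by 0.64 and 0.66 (adjusted p 0.0142 and 0.0209). For a difference between strains in the surgery effect, edgeR's quasi-likelihood test called 0 of the 91 genes on these 7 lists and 0.248% of all genes. In that test 25 of the 91 had an unadjusted p under 0.05, against 15.7% of all genes. Of the 91, limma-voom called 0. DESeq2 called 1, Errfi1, with an interaction of -1.045 on the log2 scale, MRL minus BL6 (adjusted p 0.0207 by DESeq2 and 0.124 by edgeR).

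**Figure D5:**
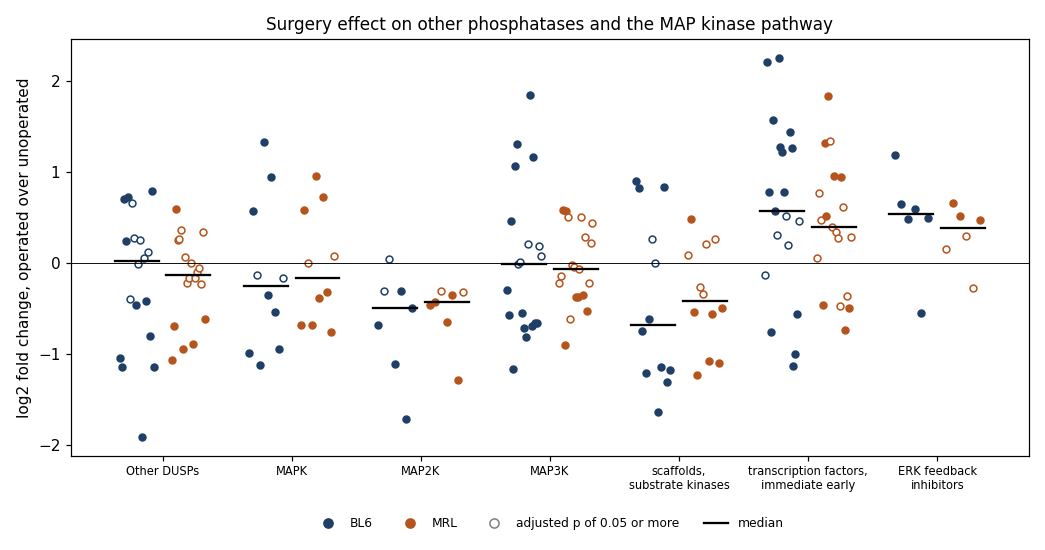
Log2 fold change of operated over unoperated muscle (y axis) for each measured gene of 7 lists, in BL6 and MRL, with filled points at an adjusted p under 0.05 and a bar at the median. MAP kinase kinases show no filled point above 0, and the medians of the transcription factor list are 0.57 and 0.39.

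In the authors' deposited table, the same members were called at a false discovery rate under 0.05 for surgery in BL6 (7 of 9) and for the strain comparisons (2 of 9 each). For surgery in MRL the authors' deposited table called 9 of 10, the additional member being Dusp26, with a log2 fold change of -0.68 and a false discovery rate of 0.0178. For Dusp10 in MRL the authors' deposited table gave -1.30 with a false discovery rate of 0.000197.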

How the data were processed

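Total RNA of 16 rotator cuff muscle samples was sequenced, 4 per strain and surgery group, and grouped by sample title. Per the submitters' processing notes the authors used FastQC, STAR and edgeR with build mm10; versions, the counting program and strand use are not given in the sources used here. The deposited counts are whole numbers per gene with no normalization, read so from their values. The authors' deposited table gives log2 fold changes and p-values per the file headers.

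From the counts, edgeR 4.0.16 in R 4.3.3 was used with TMM scaling and filterByExpr (minimum count 10), which kept 11709 of 11710 genes. A quasi-likelihood model with 4 group means was fitted to all 16 samples, and p-values were adjusted by Benjamini-Hochberg over all genes tested, with calls under 0.05. CPM values use TMM-scaled totals, and log2 CPM for correlations used a prior count of 2. The test of surgery in MRL was checked on simulated data with balanced changes in operated MRL only. Far fewer genes were changed there than were called here, so that check does not cover changes this widespread. Alternatives were RLE or total-count scaling, no filter, DESeq2 1.42.0, limma-voom 3.58.1, only the compared groups, a replicate block and leaving out each sample. Floors of 3 counts cover counting error only. No replicate pair agreed within sampling noise. Exon lengths and positions come from GENCODE M21, where 11708 gene IDs matched.

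The members and lists were chosen with earlier results of these data known. All members are described, Dusp10's nearest genes are the 5 with the highest Pearson correlation, and each pathway list is shown by its 3 most abundant genes by CPM and any gene called for an interaction, apart from 2 genes that are not reported here.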

Additional observations from a re-analysis of the deposited data

Results flagged for a closer look

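In 40 groups of 4 values, the following samples lay far from the other 3 of their group by Dixon's ratio of gap to range, with a critical value of 0.829, which chance exceeds in about 1 in 20 groups. Dusp1 was 90.0 CPM in replicate 1 of unoperated BL6, against 40.4 to 46.6 in the others. Dusp3 was 167 CPM in replicate 4 of unoperated BL6, against 152 to 153. Dusp8 was 39.5 CPM in replicate 2 of unoperated MRL, against 32 to 32.6. Dusp16 was 28.3 CPM in replicate 4 of operated MRL, against 14.7 to 17.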

How the results depend on the processing

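Of 1190 values of single members under alternatives, 1125 kept their direction and, where tested, their side of the threshold. The 1190 include the values of Dusp10 in comparisons that hold BL6 samples. Those have no test and were judged by direction alone, and they include the values used to choose Dusp10. For the 19 called results, 456 alternatives gave no change of direction and 25 lost calls, in Dusp3, Dusp7, Dusp16 and Dusp26. The count of members called ranged from 6 to 8 for surgery in BL6 and from 6 to 9 for surgery in MRL. It was 1 to 2 for the unoperated and 2 to 3 for the operated strain comparison when 1 sample was left out, and 1 for the latter with only the compared groups. The interaction count was 0 under every alternative run. Leaving out the 3 libraries that stood apart, chosen after seeing the data, gave counts of 6, 9, 2, 2 and 0, and Dusp16 in MRL was then -1.01.

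Results that changed sign were not called under any setting. With total counts only, MRL over BL6 unoperated was 0.072 for Dusp1, 0.106 for Dusp13, 0.09 for Dusp16 and 0.113 for Dusp27, and the Dusp3 interaction was -0.006; this scaling moves the median of all genes in that comparison from 0.01 to 0.15, and in BL6 surgery from 0.04 to 0.18. Without the 3 libraries, the unoperated values were 0.009 for Dusp1 and 0.025 for Dusp16, the operated value of Dusp8 was -0.082, and the interactions were -0.048 for Dusp3 and -0.127 for Dusp26. With 1 sample left out, unoperated values ranged from -0.217 to 0.273 for Dusp1, -0.135 to 0.031 for Dusp16 and -0.09 to 0.012 for Dusp27. Operated values ranged from -0.194 to 0.34 for Dusp8 and -0.073 to 0.289 for Dusp13. Interactions ranged from -0.383 to 0.106 for Dusp1, -0.215 to 0.124 for Dusp7, -0.021 to 0.507 for Dusp8, -0.031 to 0.324 for Dusp13 and -0.131 to 0.34 for Dusp26. The cause was not tested.

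Over all genes, calls in the unoperated strain comparison were 2438 with only the compared groups against 1216, and in the operated one 575 against 1507. For the interaction they were 250 by DESeq2, 14 with total counts only, 67 without the 3 libraries and 1 to 69 with 1 sample left out, against 29. Surgery in MRL gave 3490 without replicate 3 of operated MRL, against 5272. With total counts only, 70.3% against 48.4% of unoperated and 72.2% against 59.1% of operated strain calls were higher in MRL. With the replicate block, members called were 7, 8, 2, 2 and 0, no call changed, and 2 genes were called for the interaction. Same-numbered samples correlated by -0.47 to 0.45 (median 0.08), and the same number correlated best in 7 of 24 comparisons. The labels do not say whether same-numbered samples share an animal or a batch. These correlations cannot decide it, because other differences between samples also enter them. Depth did not limit these genes, which were at 9.87 CPM or more in every sample.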

Other observations

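Replicate 4 of operated MRL differed from the other operated MRL samples in several members at once. Relative to the mean of unoperated MRL on the log2 scale, it stood at -0.13 for Dusp8, where the other 3 stood at -1.545 to -1.03, and at -0.06 for Dusp16, where the others stood at -1.002 to -0.79. For Dusp6 it stood at 0.30, against 0.79 to 1.36, and for Dusp13 at -0.47, against -0.25 to 0.13. By smaller gaps it lay outside the others for Dusp10, at -1.05 against -1.86 to -1.11, and for Dusp7, at -1.33 against -1.26 to -0.79. The same held for Dusp27, at -0.35 against -1.31 to -0.47, and for Dusp3, at -0.13 against -0.47 to -0.21. Dusp26 stood at -0.55, against -0.53 to -0.42. For Dusp1 it lay within the others, at 0.99 against 0.68 to 1.05. Its labels place it in the operated group, and it was kept there.

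Outside the members, Dusp23 was lower in MRL than in BL6 in both conditions, by 0.985 without and by 1.13 with surgery on the log2 scale (adjusted p 0.000288 and 7.72e-05 under edgeR's quasi-likelihood model). Dusp18 was higher in unoperated MRL than in unoperated BL6 by 1.48 (adjusted p 0.0133) and had -0.13 after surgery (adjusted p 0.85). The Dusp18 interaction was -1.61 (adjusted p 0.179, same test), so its surgery effect is not shown to differ between strains. Dusp23 and Dusp18 are on the list of other phosphatases and were picked after their values were seen. Of the 18 measured on that list, 3 were called in each strain comparison (16.7%), against 10.4% of all genes unoperated and 12.9% operated. The other calls were Dusp12 unoperated (0.59) and Dusp14 and Styx operated (0.89 and 0.77), all higher in MRL.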
